A study of Mus musculus with 12 samples.

Results

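The RNA levels of 10 genes for the contractile apparatus of smooth muscle were followed in cells sorted from the newborn mouse testis. The genes were chosen by name for their place in that apparatus, with earlier results of these data known. They are *Acta2*, *Myh11*, *Des*, *Cnn1*, *Actg2*, *Tagln*, *Myl9*, *Mylk*, *Lmod1* and *Synpo2*, or 10 of the 54532 genes in the count table. All 10 were present in the count table and in the table of FPKM values (fragments per kilobase of gene and per unit of library depth), and all 10 passed the filter on low counts in every comparison. The mice carried the transgene Tg(Pou5f1-EGFP)2Mnn, in which a *Pou5f1* (OCT4) promoter lacking its proximal enhancer drives green fluorescent protein (GFP) in germ cells. Pregnant dams received 10 μg of dexamethasone (dex), a synthetic glucocorticoid, per g of body weight at E17.5 and E18.5 (embryonic days), and their pups received the drug under the skin at postnatal day 0. Testes were taken at postnatal day 1, and control dams and pups received saline on the same days. The GFP-positive cells (germ cells) and the GFP-negative cells (all somatic cells of the testis together) of each treatment were sequenced in bulk in 3 libraries per group. Each library came from testes pooled over independently dosed litters.

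Peritubular myoid cells are flat, smooth muscle-like cells that wrap the seminiferous tubules, and their contraction is known to move fluid and sperm in the adult. Smooth muscle contracts when myosin light chain kinase phosphorylates the regulatory light chain of myosin, which lets the myosin heavy chain pull on actin filaments, while desmin filaments tie the contractile units together. Many genes of this apparatus are known targets of serum response factor (SRF) with its partners of the myocardin family. The same genes are also expressed by the smooth muscle of blood vessels and, in part, by pericytes, so in GFP-negative cells sorted without a further marker the peritubular and vascular sources of these transcripts cannot be told apart. In such bulk samples fewer cells of a type and less RNA per cell cannot be told apart either.

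The 12 libraries held between 18459692 and 25178477 counts in genes, and 3 counts, taken as the floor of detection, corresponded to 0.111 to 0.170 CPM (counts scaled to a common library depth) depending on the library. CPM values below were scaled by trimmed mean of M values (TMM) over the 12 libraries and are given as mean ± SD over 3 libraries per group. The sort separated the fractions. The germ cell markers *Ddx4*, *Dazl* and *Pou5f1* summed to between 1704 and 1984 CPM over the 6 germ libraries and to between 1.17 and 3.43 CPM over the 6 somatic libraries. The somatic fraction was mixed, since 5 Sertoli cell markers summed to 2276 to 2481 CPM and 7 markers of fibroblasts and interstitial stroma to 6871 to 9828 CPM in the saline somatic libraries.

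Within the saline somatic fraction the contractile genes spanned more than 3 orders of magnitude per unit of gene length, and a pair of genes made up most of the total. *Acta2* (α-smooth muscle actin, the actin of the contractile filament; chr19:34241090-34255336, minus strand, mm10) had the highest FPKM, at 457 ± 9.12 (SD, n = 3). *Myl9* (the regulatory light chain of smooth muscle myosin; chr2:156775420-156781658, plus strand) followed at 376 ± 18.0 FPKM. These 2 genes held 49.6% and 40.8% of the FPKM summed over the 10 genes.

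*Myh11* (smooth muscle myosin heavy chain; chr16:14194535-14291372, minus strand) stood at 35.1 ± 4.09 FPKM, more than 10-fold below its light chain. *Mylk* (myosin light chain kinase; chr16:34745210-35002420, plus strand) stood at 26.2 ± 2.60 FPKM. *Mylk* also yields a longer nonmuscle kinase and the short protein telokin, which gene counts do not separate. The ranges of these first 4 genes did not touch those of their neighbours in the order. *Des* (desmin, the intermediate filament protein of muscle; chr1:75360329-75368579, plus strand) had 8.31 ± 0.621 FPKM and *Actg2* (γ-smooth muscle actin, typical of visceral smooth muscle; chr6:83512905-83536265, minus strand) had 7.34 ± 0.962 FPKM. *Cnn1* (calponin, an actin-binding inhibitor of the myosin ATPase; chr9:22099216-22109630, plus strand) had 5.64 ± 1.17 FPKM and *Lmod1* (leiomodin, a nucleator of actin filaments; chr1:135324807-135368065, plus strand) had 4.69 ± 0.889 FPKM. Over the 3 libraries the range of *Des* overlapped that of *Actg2*, *Actg2* overlapped *Cnn1* and *Cnn1* overlapped *Lmod1*, so the order within each of these neighbouring pairs was not resolved. *Tagln* (transgelin, an actin-bundling protein also called SM22α; chr9:45929619-45936058, minus strand) and *Synpo2* (synaptopodin 2, an actin-bundling protein of the Z-disc and dense bodies; chr3:123076519-123236149, minus strand) were lowest, at 0.997 ± 0.379 and 0.369 ± 0.124 FPKM.

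The low value of *Tagln*, a gene often used to mark smooth muscle, is uncertain. Of its 1988 exon bases in the GENCODE M21 annotation, 639 lay under no exon of another gene, and 67.9% lay under exons of *Pcsk7* or *Gm48529* on the other strand. The setting for strand in the authors' counting is not given in the sources used here, and reads from the shared bases could be left out or split. *Tagln* drew 529 counts over all 12 libraries, against 9079 for *Pcsk7* and 491 for *Gm48529*. *Gm48529* itself averaged 3.12 ± 0.533 CPM in saline and 0.983 ± 0.474 CPM in dex somatic cells, and whether reads of *Tagln* are among these was not tested. Of the other 9 genes, only *Mylk* (6.85%) and *Des* (5.86%) had any exon bases under another gene's exon.

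RefSeq promoter sequences (build GRCm38.p6) were at hand for 7 of the 10 genes and not for *Myh11*, *Actg2* and *Tagln*. They were searched on both strands, from 250 bases before to 50 bases after the start, for the CArG box, the binding motif of SRF, which has 2 C, 6 bases that are A or T, and 2 G, and for CArG-like sites that hold 1 G or C among the 6 central bases. Of the 7 promoters, 2 held either motif, those of *Acta2* and *Myl9*, the 2 genes with the highest level. Over all 32851 promoters of the table, 9.98% held either motif, 1.63% held the CArG box and 8.5% the CArG-like form. The 250 bases before the RefSeq start are shown for both genes with these sites in capitals, chr19:34255374-34255623 on the minus strand for *Acta2* and chr2:156775214-156775463 on the plus strand for *Myl9*.
Acta2: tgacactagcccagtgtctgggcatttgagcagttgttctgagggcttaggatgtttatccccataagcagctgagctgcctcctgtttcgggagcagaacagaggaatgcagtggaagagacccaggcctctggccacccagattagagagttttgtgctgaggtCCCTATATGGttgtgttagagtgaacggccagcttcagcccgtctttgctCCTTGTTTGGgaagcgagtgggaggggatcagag
Myl9: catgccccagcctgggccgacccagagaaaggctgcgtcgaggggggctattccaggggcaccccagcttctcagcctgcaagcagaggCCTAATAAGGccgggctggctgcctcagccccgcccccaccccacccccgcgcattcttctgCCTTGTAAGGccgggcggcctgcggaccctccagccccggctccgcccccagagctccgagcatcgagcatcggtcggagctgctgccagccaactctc
The CArG box of *Myl9* began 161 bases and its CArG-like site 99 bases before the start. *Acta2* had no full CArG box in this stretch and held 2 CArG-like sites, which began 84 and 34 bases before the start. Each match read as a match on both strands and was counted once. The palindromic core of the glucocorticoid response element (G, any base, ACA, any 3 bases, TGT, any base and C) was found in 0 of the 7 promoters and in 0.475% of all promoters. TATAAA was found in 1 of 7, that of *Synpo2*, against 13.6% of all promoters. This match lay on the opposite strand and began 233 bases before the start. The windows were placed around one RefSeq start per gene. For *Mylk* that start lies far inside the counted gene, and for *Myl9*, *Cnn1* and *Lmod1* shortly inside it.

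**Figure D1:**
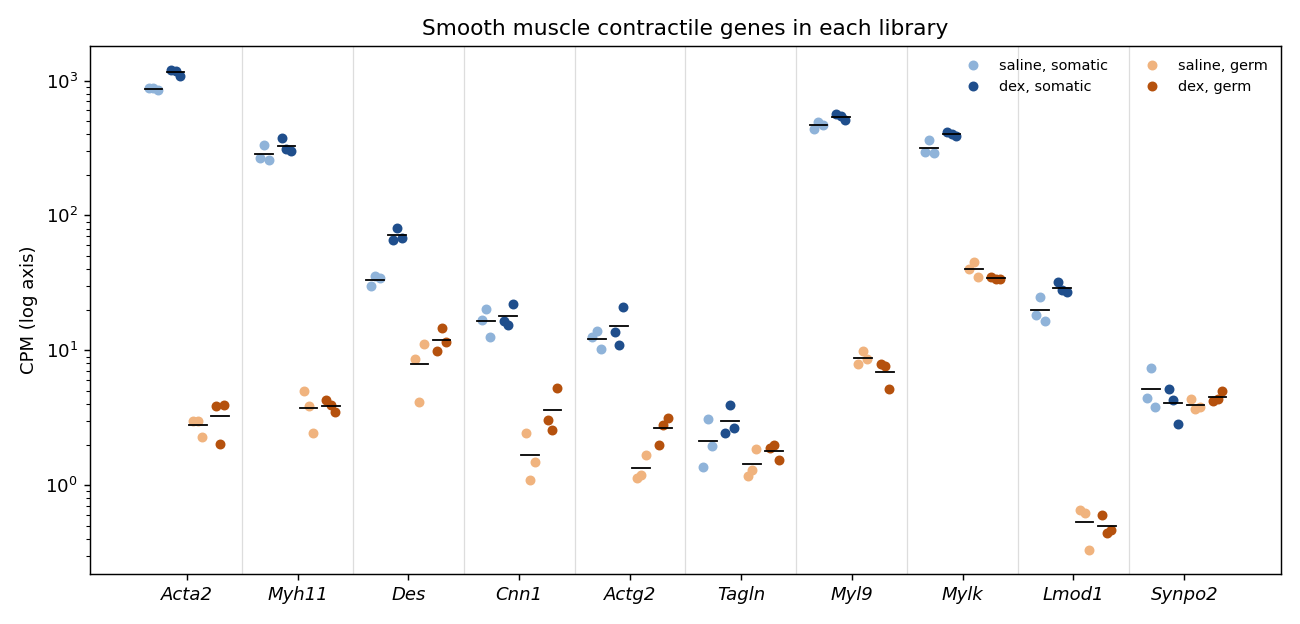
CPM (log axis) of the 10 contractile genes in each of the 12 libraries, with 1 point per library, coloured by group, and a black bar at the mean of the 3 libraries. *Des* lay between 30.0 and 35.5 CPM in saline and between 65.2 and 80.5 CPM in dex somatic cells, and 8 of the 10 genes were called lower in germ than in somatic cells in both treatments.

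The first comparison asked how the somatic cells differed after dex. Of the 10 contractile genes, 4 were higher in dex than in saline somatic cells and 0 were lower at an adjusted p at or under 0.05 by edgeR's quasi-likelihood test. Over all 16766 genes tested, 2.74% were called higher and 1.17% lower. The 4 were *Des*, *Acta2*, *Mylk* and *Lmod1*, which code for an intermediate filament protein, an actin, a kinase and an actin nucleator. The log2 fold change was above 0 for 9 of the 10, with a median of 0.37 beside -0.01 over all genes tested.

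*Des* rose most. It was at 65.2, 80.5 and 68.6 CPM in the 3 dex libraries and at 30.0, 35.5 and 34.4 CPM in the 3 saline libraries. The lowest dex library lay well above the highest saline library, and the mean went from 33.3 ± 2.91 to 71.4 ± 8 CPM. The fitted change was 2.19-fold, or 1.13 ± 0.12 (SE) on the log2 scale (edgeR's adjusted p = 3.97e-05). *Des* was called under all 14 alternatives tried, with adjusted p from 2.15e-18 to 0.012.

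*Acta2* was at 1198, 1185 and 1072 CPM in dex and at 875, 881 and 847 CPM in saline somatic cells. The groups did not overlap, and the saline libraries were within a narrow band. Mean *Acta2* went from 868 ± 18.3 to 1152 ± 69.3 CPM. Its fitted log2 fold change was 0.44 ± 0.08 (SE), and edgeR's adjusted p was 0.00367. Over the 14 alternatives its adjusted p ranged from 1e-08 to 0.0778, and the call was lost in limma on FPKM and in a joint fit of all 12 libraries. In absolute terms it was the largest gain of any of the 10 genes.

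*Mylk* was at 415, 400 and 389 CPM in dex and at 295, 362 and 289 CPM in saline somatic cells. All dex libraries were above all saline libraries, although saline replicate 2 came close to them. Mean *Mylk* went from 315 ± 40.3 to 401 ± 12.7 CPM. The fitted log2 change was 0.38 ± 0.08 (SE; edgeR's adjusted p = 0.0144). *Mylk* no longer passed when dex replicate 1 was dropped (adjusted p = 0.0554), when saline replicate 1 (0.0989) or saline replicate 3 (0.0920) was, in limma on FPKM and in the joint fit, and its adjusted p ranged from 0.000123 to 0.0989 over the alternatives.

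*Lmod1* was at 32.1, 27.8 and 27.1 CPM in dex and at 18.3, 24.7 and 16.5 CPM in saline somatic cells. Here too the groups did not overlap, and saline replicate 2 was again the saline library closest to dex. Mean *Lmod1* went from 19.8 ± 4.33 to 29.0 ± 2.72 CPM. The fitted log2 change was 0.58 ± 0.15 (SE; edgeR's adjusted p = 0.0374). This call was the least secure of the 4. It was lost on leaving out dex replicate 1 (adjusted p = 0.133), 2 (0.0819) or 3 (0.0736) or saline replicate 1 (0.144) or 3 (0.170), and its adjusted p ranged from 0.00563 to 0.170 over the alternatives. When dex replicate 1 was dropped, 2 of the 10 genes were still called, and so it was for saline replicates 1 and 3.

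The myosin subunits did not pass the test. *Myl9* was at 567, 542 and 511 CPM in dex and at 435, 495 and 470 CPM in saline somatic cells, so that its groups did not overlap. Its log2 change of 0.24 ± 0.08 (SE) missed the threshold in edgeR (adjusted p = 0.107), while DESeq2 gave an adjusted p of 0.0158, the lowest of a range up to 0.350 over the alternatives. *Myh11* was at 374, 310 and 301 CPM in dex and at 266, 333 and 257 CPM in saline somatic cells. Saline replicate 2 was above 2 of the 3 dex libraries, and the log2 fold change was 0.23 ± 0.10 (SE; adjusted p = 0.239, edgeR). With *Des*, *Acta2*, *Mylk*, *Lmod1* and *Myl9*, 5 of the 10 genes had all dex libraries above all saline libraries, against 9.38% of all genes tested.

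In *Actg2* and *Cnn1* a single library stood out. *Actg2* was at 13.6, 11.1 and 21.1 CPM in dex and at 12.6, 13.8 and 10.2 CPM in saline somatic cells, a log2 fold change of 0.35 ± 0.22 (SE; adjusted p = 0.478, edgeR). *Cnn1* was at 16.4, 15.4 and 22.1 CPM in dex and at 16.8, 20.2 and 12.6 CPM in saline somatic cells, a log2 fold change of 0.15 ± 0.19 (SE; adjusted p = 0.761, edgeR). In both genes dex replicate 3 was the highest of the 6 libraries and saline replicate 3 the lowest of the saline libraries. Without dex replicate 3 the log2 fold change was 0.04 for *Actg2* and -0.02 for *Cnn1*.

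The remaining pair had few counts. *Tagln* was at 2.44, 3.90 and 2.67 CPM in dex and at 1.37, 3.07 and 1.94 CPM in saline somatic cells (log2 fold change 0.53 ± 0.43, SE; adjusted p = 0.609, edgeR). *Synpo2* was at 5.15, 4.26 and 2.82 CPM in dex and at 4.46, 7.38 and 3.79 CPM in saline somatic cells (log2 fold change -0.32 ± 0.33, SE; adjusted p = 0.708, edgeR). It was the only one of the 10 with a log2 fold change below 0. The groups overlapped in both genes.

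**Figure D2:**
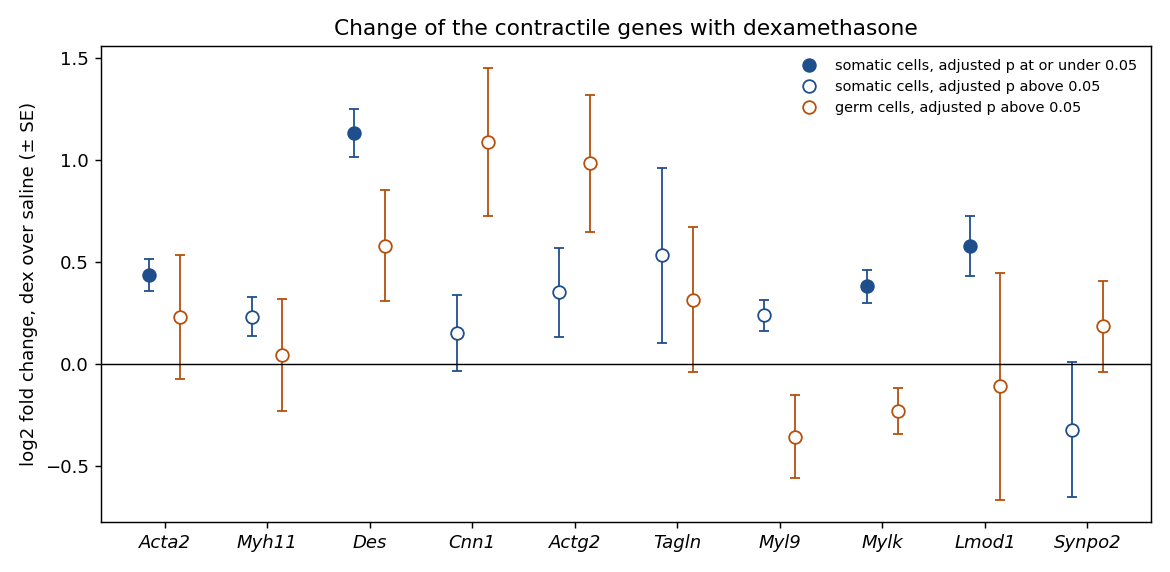
Log2 fold change of dex over saline (y axis, ± SE from edgeR) for the 10 contractile genes in somatic cells (blue) and germ cells (orange), with filled points where the adjusted p was at or under 0.05. The 4 filled points are *Des* at 1.13, *Lmod1* at 0.58, *Acta2* at 0.44 and *Mylk* at 0.38, all in somatic cells.

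Scaling by library totals in place of TMM lowered the somatic log2 fold changes slightly. The median over all genes tested then went from -0.01 to -0.07, and the share of called genes that were higher went from 70.1% to 53.5%. Of the 10 contractile genes 3 were then called, as *Lmod1* had an adjusted p of 0.0639 (its range over the alternatives is given above).

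The genes changed in unequal proportion. *Des* reads amounted to 3.43%, 4.03% and 4.06% of *Acta2* reads (both in CPM) in the 3 saline somatic libraries and to 5.44%, 6.79% and 6.40% in the 3 dex somatic libraries, so that every dex ratio was above every saline ratio. In contrast, *Mylk* reads were 61.4 to 73.0% of *Myl9* reads in saline and 73.1 to 76.2% in dex, ranges that nearly touched.

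Some of the genes followed each other from library to library. Over the 6 somatic libraries the log2 CPM of 42 of the 45 pairs of these genes correlated with r above 0, with a median r of 0.488. After the group means were removed 36 of 45 were above 0, with a median of 0.423. Saline replicate 2 was the highest saline library for each of the 10 genes. Its mean log2 CPM over the 10 was 5.81, against 5.44 and 5.40 in saline replicates 1 and 3. How much of these correlations, or of the likeness given below, rests on that library was not tested. *Mylk* and *Lmod1* kept r = 0.971 within groups and *Cnn1* and *Actg2* kept r = 0.895, whereas *Acta2* and *Actg2*, the 2 actins, had r = -0.645. These are descriptions over 6 points that share library and depth. By the rule of likeness used here, the genes whose log2 CPM most resembled the mean of the 10 over the same 6 libraries, among 10193 genes with at least 10 CPM on average, were *Hpgd* (r = 0.994, rho = 0.943), *Phf20*, *Myo1c*, *Zmynd11*, *Gpr107*, *Mertk*, *Tbc1d24* and *Cdr2l* (r of 0.988 or more). *Hpgd*, which codes for the enzyme that inactivates prostaglandins, averaged 16.0 CPM in saline and 27.8 CPM in dex somatic cells. In all, 60 genes had r of 0.95 or more.

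Related parts of the apparatus were examined as lists. A list of 33 other genes of the smooth muscle apparatus was neither purely structural nor particular to smooth muscle. It also held ion channel genes and general cytoskeletal genes. Of the 33, 6 were higher and 0 lower in dex than in saline somatic cells by edgeR's test (8 and 0 by DESeq2). Their median log2 fold change was 0.13. At an unadjusted p under 0.05 there were 13, a level reached by 16.1% of all genes tested. *Smtn* (smoothelin, a protein of contractile smooth muscle) rose from 101 ± 3.29 to 154 ± 1.68 CPM (log2 fold change 0.64 ± 0.08, SE; adjusted p = 0.000165, edgeR). *Csrp1* (a LIM-domain protein bound to actin filaments) rose from 197 ± 0.459 to 273 ± 23.9 CPM, *Palld* (palladin, an actin crosslinker) from 70.6 ± 11.1 to 105 ± 5.01 CPM and *Itga5* (the α5 subunit of the fibronectin receptor) from 68.0 ± 2.49 to 89.7 ± 5.42 CPM. *Pdlim3* and *Tpm2* were the other 2 called. Other members of the same list were higher or lower by amounts that missed the threshold, among them *Cald1* (caldesmon, 0.33, adjusted p = 0.0685) and *Itga7* (an integrin of muscle, -0.64, adjusted p = 0.0714).

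Among 16 genes that control myosin phosphorylation, 15 were tested and 1 was called. It was *Ppp1r14a*, which codes for CPI-17, the smooth muscle inhibitor of myosin phosphatase, and it rose from 32.5 ± 0.779 to 60.4 ± 8.97 CPM (log2 fold change 0.92 ± 0.12, SE; adjusted p = 0.000317, edgeR). The kinases *Rock1* and *Rock2*, the phosphatase subunits *Ppp1cb* and *Ppp1r12a* and the calmodulin genes had log2 fold changes between -0.06 and 0.13. Over the whole list, which holds other phosphatase subunits too, the values ran from -0.155 to 0.92, with a median of 0.02. *Pln* (phospholamban) was at or under 3 counts in every library.

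None of 6 nonmuscle actin and myosin genes was called (median -0.08, 1 at an unadjusted p under 0.05). The nearest to the threshold was *Actb* (β-actin, the cytoskeletal actin), at 3502 ± 170 CPM in dex and 3008 ± 319 CPM in saline (adjusted p = 0.219, edgeR). None of 14 tested regulators of the smooth muscle programme was called either, with 6 at an unadjusted p under 0.05. Their log2 fold changes went both ways, 8 above and 6 below 0, from -0.702 to 0.591 with a median of 0.10. *Klf4* was nearest to the threshold, with a log2 fold change of 0.32 (adjusted p = 0.108, edgeR). *Srf* itself was at 236 ± 25.8 CPM in dex and 210 ± 22.6 CPM in saline (0.19, adjusted p = 0.390), and *Myocd*, its smooth muscle coactivator, was at 17.1 ± 5.53 and 15.2 ± 3.68 CPM (0.19, adjusted p = 0.732). DESeq2 called 0 of the nonmuscle genes and 1 regulator, *Klf4*.

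Of 20 genes for receptors and pathway components through which peritubular cells are known to be signalled to, 5 were higher and 0 lower. *Tgfbr3* (betaglycan, a coreceptor of TGFβ and inhibin) rose from 93.0 ± 13 to 173 ± 27.4 CPM (log2 fold change 0.92 ± 0.12, SE; adjusted p = 0.000246, edgeR). *Boc* (a coreceptor of hedgehog ligands) rose from 89.9 ± 12.8 to 122 ± 11.9 CPM and *Pdgfra* (the PDGF receptor α) from 747 ± 125 to 1031 ± 128 CPM. *Ednra*, the endothelin receptor A, through which endothelin is known to contract these cells, rose from 319 ± 38.7 to 417 ± 49.7 CPM. The other gene called was *Agtr1a*, an angiotensin receptor, from 0.933 ± 0.714 to 3.98 ± 1.43 CPM. *Pdgfra* is also a marker of interstitial fibroblasts and stands on the stromal list below as well.

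**Figure D3:**
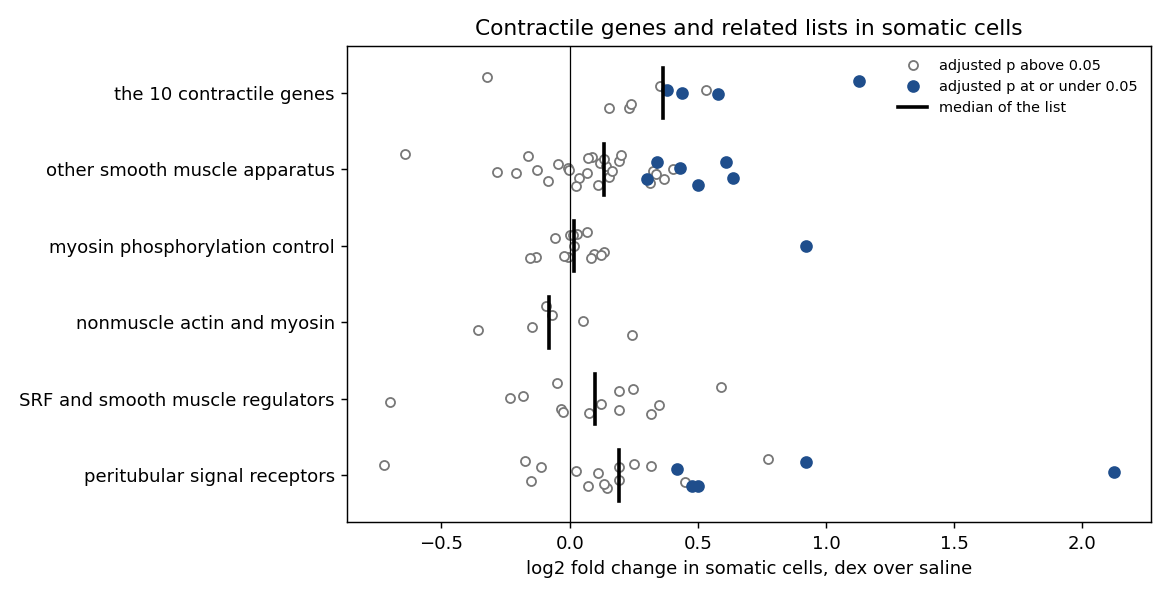
Log2 fold change of dex over saline in somatic cells (x axis) for each tested gene of the 10 contractile genes and of 5 related lists, with filled points where the adjusted p was at or under 0.05 and a black bar at the median of each list. The medians run from -0.08 for nonmuscle actin and myosin to 0.37 for the 10 contractile genes.

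Markers of other cell types also moved between the somatic groups. The 7 markers of fibroblasts and interstitial stroma summed to 6871 to 9828 CPM in saline and 10790 to 12980 CPM in dex libraries, a 1.47-fold ratio of the means, and 3 of 7 were called higher. These were *Col1a1*, the most abundant (3261 to 5613 CPM), *Dcn* and *Pdgfra*. The 10 contractile genes summed to 1943 to 2176 CPM in saline and 2418 to 2689 CPM in dex, a 1.27-fold ratio. Both sums were higher in every dex library than in any saline library, and the part of stromal cells in the contractile result was not tested.

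The pericyte and vascular smooth muscle markers did not move one way. Summed, the 7 markers were at 388 to 452 CPM in saline and 424 to 511 CPM in dex. *Cspg4* (NG2, the most abundant of the list at 167 CPM in saline) was called higher, while *Rgs5* and *Mcam* were called lower. *Rgs5*, a marker of pericytes, fell from 17.0 to 4.99 CPM (log2 fold change -1.73 ± 0.24, SE; adjusted p = 0.000519, edgeR). *Higd1b*, another pericyte gene, averaged 0.366 CPM in saline and was at or under 3 counts in every dex library.

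*Des* is shared with skeletal muscle, whose 6 skeletal muscle markers summed to 5.48 to 7.51 CPM in saline and 5.32 to 10.3 CPM in dex. Only 2 of the 6 could be tested by edgeR, with 0 called and 1 at an unadjusted p under 0.05, and DESeq2 called 0 of the list. *Myod1* and *Myog* were at or under 3 counts in every dex library, and the highest of them, *Tnnt3*, was at 3.65 CPM in saline. The 5 Sertoli cell markers, led by *Amh* at 1780 CPM, gave nearly equal sums (2276 to 2481 CPM in saline, 2138 to 2533 CPM in dex), with 0 called by either tool and 1 at an unadjusted p under 0.05. The 5 Leydig cell markers, led by *Hsd3b1* at 45.5 CPM, summed to 118 to 200.1 CPM in saline and 85.4 to 173 CPM in dex, with *Star* called lower.

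Of the 4 endothelial markers, led by *Cdh5* at 220.0 CPM, 3 of 4 had a log2 fold change below 0 (median -0.60) and 3 were at an unadjusted p under 0.05. *Tek* was called lower by edgeR, and *Pecam1* and *Tek* by DESeq2. The sums overlapped (235 to 276 CPM in saline and 242 to 317 CPM in dex), most of them being *Cdh5*, which was at 253 CPM in dex and was not called. The 4 macrophage markers, led by *Lyz2* at 17.8 CPM, were lower in every dex library (13.2 to 16.9 CPM) than in any saline library (30.5 to 53.6 CPM), with *Csf1r* and *Lyz2* called lower. The 3 mesothelial markers, led by *Msln* at 2.50 CPM, varied between 0.922 and 12 CPM among the saline libraries alone, with 0 called by either tool and 0 at an unadjusted p under 0.05. Germ cell markers in the somatic fraction, led by *Dazl* at 1.42 CPM, were lower in dex (1.17 to 1.66 CPM) than in saline libraries (2.48 to 3.43 CPM), with 0 of the 2 that could be tested called by either tool and 0 at an unadjusted p under 0.05. No marker on these lists was at or under 3 counts in all 6 somatic libraries.

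**Figure D4:**
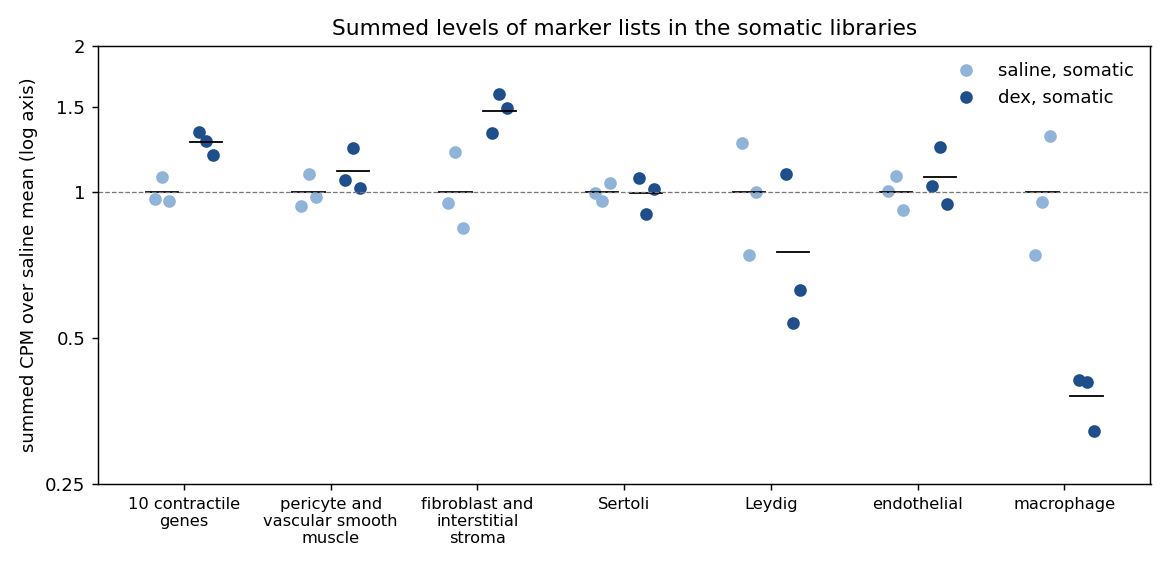
Summed CPM of marker lists in each of the 6 somatic libraries, divided by the mean of the 3 saline libraries (log axis), with points for libraries and bars for group means. The dex means stand at 1.27 for the 10 contractile genes, 1.47 for stromal, 0.994 for Sertoli and 0.379 for macrophage markers.

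The second question was how far these transcripts were confined to the somatic fraction. In saline, 8 of the 10 genes were lower in germ than in somatic cells and 0 were higher, where 36.7% of all 18870 genes tested were called lower. The groups did not overlap for the same 8 genes, against 38% of all genes in that direction. The median log2 difference over the 10 was -3.24, beside 0.07 over all genes tested. That median over all genes went to 0.21 under scaling by library totals (and from 0.12 to 0.30 in dex).

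The 8 genes spread widely in how little of them was left in germ cells. *Acta2* was at 3.02, 3.02 and 2.29 CPM in saline germ cells, or 0.320% of its somatic mean, a log2 difference of -8.29 ± 0.12 (SE; adjusted p = 1.52e-12, edgeR). *Myh11* was at 1.32%, *Myl9* at 1.90% and *Lmod1* at 2.71% of the somatic mean. *Cnn1* at 10.1%, *Actg2* at 10.9%, *Mylk* at 12.7% and *Des* at 23.9% were retained more. As a reference for somatic RNA in the germ fraction, the summed Sertoli markers were at 1.35% and the stromal markers at 1.55% of their somatic sums, with Leydig markers at 6.28% and macrophage markers at 11.3%. *Star* alone gave 6.15 of the 9.985 CPM of Leydig markers in saline germ cells and was at 17.4%. The other Leydig markers were at 1.34 to 4.78%. *Cd68* gave 3.72 of the 4.65 CPM of macrophage markers and was at 40.1%, with the others at 1.28 to 10.7%. As sums the other lists gave no such reference. The endothelial sum (22.4%) included *Pecam1*, which was higher in germ cells (23.9 against 15.8 CPM), and the sums of the pericyte and vascular smooth muscle (158%), skeletal muscle (141%) and mesothelial markers (189%) were higher in germ than in somatic cells. *Mcam* gave 643 of the 657 CPM of pericyte and vascular markers in saline germ cells and was at 588%. The other markers of that list were at 1.81% (*Cspg4*) to 12.4% (*Abcc9*), apart from *Higd1b* (33.7%, with a somatic mean of 0.366 CPM). Marker by marker, the shares in saline ran from 0.676% to 4.54% for Sertoli and from 0.488% to 2.62% for stromal genes. *Acta2* lay below both ranges, *Myh11* and *Myl9* inside both, and *Lmod1* inside the Sertoli range and just above the stromal one. *Cnn1*, *Actg2*, *Mylk* and *Des* lay above both. Beside the pericyte and vascular markers other than *Mcam* and *Higd1b*, *Cnn1* and *Actg2* lay inside the range and *Mylk* just above it. The part of carried-over somatic RNA was not tested.

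*Tagln* (log2 difference -0.56 ± 0.43, SE; adjusted p = 0.254, edgeR) and *Synpo2* (-0.40 ± 0.30; adjusted p = 0.242) were not called. *Synpo2* was at 4.38, 3.65 and 3.81 CPM in saline germ cells and at 4.46, 7.38 and 3.79 CPM in saline somatic cells, which overlapped. Its level in germ cells was as high as that of *Acta2* or *Myh11* in CPM, although not per length. *Lmod1* was the rarest in germ cells, with 7 to 15 counts per library.

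In germ cells the order of levels per length was another than in somatic cells. *Myl9* led with 7.76 ± 0.913 FPKM in saline, then *Mylk* with 3.62 ± 0.434 and *Des* with 2.17 ± 0.977 FPKM. *Acta2* was next with 1.59 ± 0.233 FPKM, its range overlapping that of *Des*. *Mylk* reads were 61.4 to 73.0% of *Myl9* reads in saline somatic cells but 404 to 506% in saline germ cells.

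The same comparison in dex again had 8 of 10 genes lower and 0 higher, where 35.7% of 18778 genes were called lower. The 8 were the same as in saline. Log2 differences ran from -2.32 ± 0.28 (SE) for *Cnn1*, with an adjusted p of 1.02e-05 by edgeR's test, to -8.48 ± 0.19 for *Acta2*. *Tagln* (-0.73 ± 0.39; adjusted p = 0.102) was lower in all dex germ than in all dex somatic libraries without passing the test, so that 9 of 10 did not overlap, against 37.4% of all genes. *Synpo2* had a log2 difference of 0.14 ± 0.32 (adjusted p = 0.691).

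Around these genes, the lists split between the fractions. Of the 33 other genes of the apparatus, 27 were lower and 4 higher in saline germ cells, and the same counts held in dex. Of all genes tested, 39.8% were called higher in saline and 40.5% in dex germ cells, beside the shares called lower given above. *Pdlim3* had a log2 difference of -7.49 and *Tpm2* of -5.63 in saline. Of the 20 genes for receptors and pathway components 18 were lower and 0 higher in either treatment, with *Nr2f2* at -7.19 and *Gli1* at -5.88 in saline. The regulators were divided, with 8 of 16 lower and 8 higher in saline (8 and 7 in dex). *Heyl* (-4.75) and *Tcf21* (-7.66) were on the somatic side, whereas *Foxf1* (7.26) was on the germ side, at 81.5 CPM in germ and 0.521 CPM in somatic cells. Of the myosin control genes 7 of 15 were lower and 4 higher in saline (9 and 5 in dex), led by *Calm3* (-2.17) and *Ppp1r14a* (-3.97). Of the 6 nonmuscle genes 5 were lower in either treatment, with differences under 1 log2 unit in saline.

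**Figure D5:**
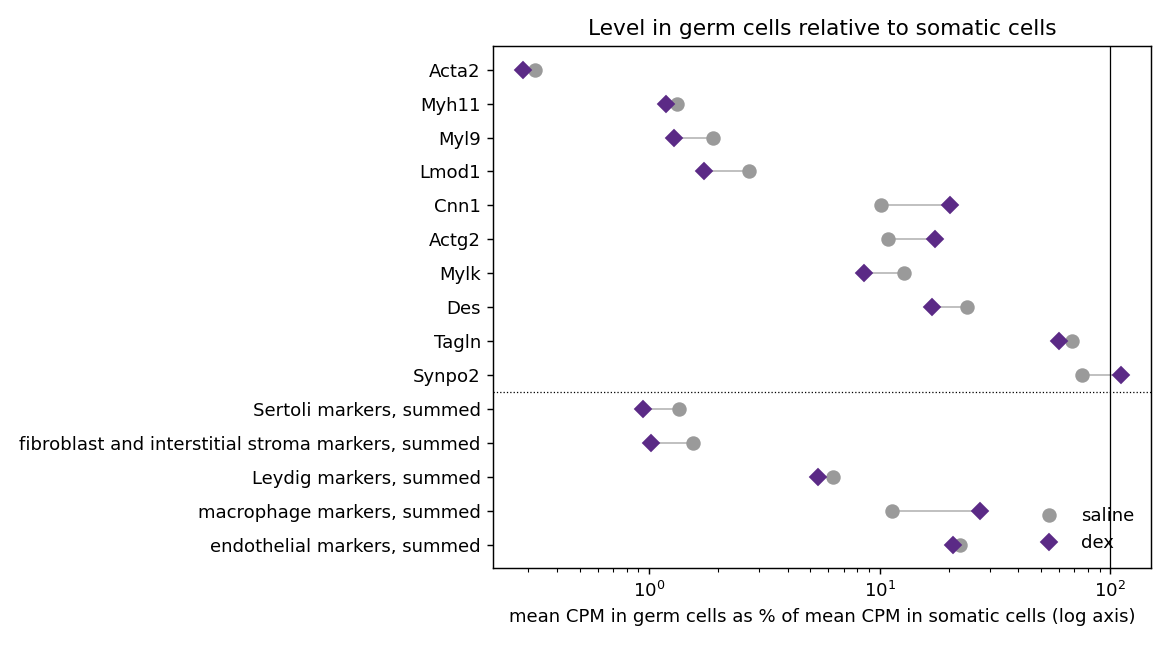
Mean CPM in germ cells as a percentage of mean CPM in somatic cells (log axis) for each of the 10 contractile genes and for summed markers of 5 somatic cell types, in saline (circles) and dex (diamonds). *Acta2* lies lowest, at 0.320% in saline and 0.285% in dex, and *Synpo2* highest, at 75.7% and 111%.

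The third comparison asked whether the germ cell fraction differed after dex. None of the 10 genes was called in either direction by edgeR's test, where 1.25% of all 18550 genes were. At an unadjusted p under 0.05 there were 2, *Cnn1* and *Actg2*, as were 14.7% of all genes, and DESeq2 called 0 with 3 at that level. *Cnn1* was at 3.04, 2.55 and 5.26 CPM in dex and at 2.45, 1.09 and 1.48 CPM in saline germ cells, a log2 fold change of 1.09 ± 0.36 (SE; adjusted p = 0.166, edgeR). *Actg2* was at 1.98, 2.81 and 3.16 CPM in dex and at 1.14, 1.2 and 1.67 CPM in saline germ cells, a log2 fold change of 0.98 ± 0.34 (SE; adjusted p = 0.172, edgeR). In both genes every dex library was above every saline library, as for 10.5% of all genes tested. With no filter on low counts *Cnn1* had an adjusted p of 0.0431, in a range of 0.0431 to 0.446 over its alternatives.

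*Myl9* was at 7.88, 7.69 and 5.21 CPM in dex and at 7.92, 9.95 and 8.67 CPM in saline germ cells. All dex libraries were below all saline libraries, as for 9.55% of all genes tested, and the log2 fold change was -0.36 ± 0.20 (SE; adjusted p = 0.449, edgeR). *Des* was at 9.86, 14.6 and 11.5 CPM in dex and at 8.67, 4.12 and 11.1 CPM in saline germ cells. These groups overlapped, and the log2 fold change was 0.58 ± 0.27 (SE; adjusted p = 0.342, edgeR). The 10 genes summed to 68.7 to 74.5 CPM in saline and 72.9 to 74.1 CPM in dex germ cells. In the same libraries the Sertoli markers summed to 30.0 to 33.3 CPM in saline and 17.9 to 24.6 CPM in dex, with 5 of 5 log2 fold changes below 0, 3 at an unadjusted p under 0.05 and 0 called. The Leydig markers summed to 8.76 to 11.6 CPM in saline and 4.65 to 8.62 CPM in dex. The part of somatic carry-over in the values of *Myl9* and of the sum was not tested. Of the related lists a single gene was called in germ cells by edgeR's test, *Ptch1*, the hedgehog receptor, higher in dex at 0.35 ± 0.08 (SE; adjusted p = 0.0351). DESeq2 called *Ptch1*, *Cnn2*, *Fhl1*, *Srf* and *Foxf1* higher and *Myl6* and *Arhgef1* lower. *Srf* was at 143 CPM in dex and 114 CPM in saline germ cells (log2 fold change 0.31 ± 0.08, SE; adjusted p = 0.0885, edgeR).

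Last, the dex effect was compared between the fractions in one fit of all 12 libraries. The difference of log2 fold changes, germ minus somatic, was called for 0 of the 10 genes by edgeR's test and for 0.827% of all 20551 genes. There were 3 of the 10 at an unadjusted p under 0.05, as were 13.3% of all genes, and DESeq2 called 2, *Myl9* and *Mylk*. *Mylk* came nearest, at -0.57 ± 0.14 (SE; adjusted p = 0.0649, edgeR). Its log2 fold change with dex was 0.38 in somatic cells and -0.23 in germ cells, where it was at 35.3, 33.8 and 33.9 CPM in dex and at 40.1, 45.0 and 35.0 CPM in saline. The adjusted p of *Mylk* ranged from 0.00285 to 0.130 over the alternatives and was 0.0174 without saline germ replicate 3 and 0.0146 without saline somatic replicate 2. *Myl9*, its substrate, had a difference of -0.55 ± 0.17 (SE; adjusted p = 0.157, edgeR), within a range of 0.0175 to 0.283. For *Des*, which rose 2.19-fold in somatic cells, the difference was -0.51 ± 0.33 (SE; adjusted p = 0.541), so that a change of *Des* particular to somatic cells was not shown. *Cnn1* and *Actg2* had differences of 0.97 ± 0.43 (adjusted p = 0.345) and 0.67 ± 0.40 (adjusted p = 0.503), toward germ cells.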

How the data were processed

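Sorted GFP-positive and GFP-negative cells of the postnatal testis were profiled by paired-end, poly-dT selected bulk RNA-seq. According to the methods and the submitters' processing notes, the authors aligned reads to mm10 with HISAT2 2.0.5 and counted them per gene with featureCounts 1.5.0-p3. The deposited counts are raw, and the deposited FPKM values were computed by the authors from gene length, depth and counts. The annotation release and strand setting are not given in the sources used here. The authors' own comparisons (DESeq2 1.20.0) and normalized counts were not used. Of the 54532 identifiers, 99.8% were found in GENCODE M21, 98.3% of these with the same start and end. For the 10 contractile genes this held except for *Acta2*.

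Each comparison was fitted with edgeR 4.0.16 (R 4.3.3; TMM, filterByExpr with a minimum count of 10, quasi-likelihood F test, Benjamini-Hochberg adjustment over all genes tested, threshold 0.05) on the 6 libraries concerned, or on all 12 for the difference of effects. Standard errors of log2 fold changes were derived from the F statistic (absolute change over root F). TMM was estimated anew on the libraries of each fit, so fitted changes can differ slightly from ratios of the CPM means. Log2 CPM used a prior count of 2. The fits were tested on simulated data with changes of 1 or 2 log2 units and the same setting of spread between libraries for every gene. Smaller changes, such as most of those called in somatic cells, were not simulated. Alternatives were DESeq2 1.42.0, library totals, no filter or at least 10 counts in every library, limma-trend 3.58.1 on log2(FPKM + 0.1) or log2(FPKM + 1), all 12 libraries in one fit, the replicate number as a block and each library left out.

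The groups came from sample titles, and replicates are pools of separate litters. The 10 genes and all lists were chosen with earlier results of these data known. All 10 are named. From other lists up to 4 called genes per comparison with the smallest adjusted p (or, with none called, the nearest to the threshold) and the most abundant marker are named. Others in the text (*Cald1*, *Itga7*, *Pdlim3*, *Tpm2*, *Agtr1a*, *Rock1*, *Rock2*, *Ppp1cb*, *Ppp1r12a*, *Srf*, *Myocd*, *Cnn2*, *Fhl1*, *Foxf1*, *Myl6*, *Arhgef1*, *Higd1b*, *Abcc9*, *Cd68*, *Gm48529*, *Pcsk7*) were picked after their values were seen. Depth was 18459692 to 25178477 counts per library. The floor of 3 counts covers counting error only.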

Additional observations from a re-analysis of the deposited data

How the results depend on the processing

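In somatic cells, the number of the 10 contractile genes called with dex (4) was 1 in limma on log2(FPKM + 0.1), 1 in limma on log2(FPKM + 1), 1 in the joint fit of 12 libraries and 2 to 4 with each library left out. *Des* was called each time. All genes called (655) came to 1061 without a filter, 251 and 281 in the 2 limma fits and 354 to 547 with a library left out. In germ cells, the number of the 10 called (0) became 1 without a filter, and all genes called (231) came to 675 in DESeq2, 767 without a filter, 6 and 12 in the 2 limma fits, 142 in the joint fit and 49 to 265 with a library left out. For the difference of dex effects, the number of the 10 called (0) was 2 in DESeq2, 1 with library totals, 2 without a filter, 1 with at least 10 counts in every library and 0 to 1 with a library left out. All genes called there (170) came to 620 in DESeq2, 706 without a filter, 262 with at least 10 counts in every library, 57 in limma on log2(FPKM + 0.1) and 79 to 172 with a library left out. The causes of these differences were not tested. With at least 10 counts in every library *Lmod1* was not tested in germ cells, in germ against somatic cells in saline or for the difference of effects, and DESeq2 gave it no adjusted p in germ cells. The counts of germ against somatic genes called stayed within 1.5 times under every alternative.

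The sources used here do not state whether same-numbered libraries share animals, and the main fits treated all libraries as independent. Same-numbered libraries correlated in their deviations from group means at -0.0879 to 0.0444. For germ against somatic cells in saline these r were 0.0374, 0.0444 and 0.0367. The highest r with another number were lower there, at -0.00878, -0.0163 and -0.0169. In dex the same-number r were -0.00295, -0.0165 and -0.0163, below the highest with another number (0.0131, 0.0141 and 0.0246). With the replicate block, 65 genes were called in germ cells, 669 in somatic cells and 104 for the difference of effects, and the numbers of the 10 genes called stayed at 4 with dex in somatic cells, 0 in germ cells, 8 for germ against somatic cells in either treatment and 0 for the difference of effects.

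Signs that turned belonged to log2 values with an adjusted p above 0.05. With each library left out, *Cnn1* in somatic cells ranged from -0.0233 to 0.292, *Myh11* in germ cells from -0.193 to 0.305, *Lmod1* in germ cells from -0.359 to 0.0617 and *Synpo2* in germ against somatic cells in dex from -0.0685 to 0.337. For the difference of effects *Acta2* ranged from -0.371 to 0.0884, *Myh11* from -0.408 to 0.10 and *Tagln* from -0.526 to 0.0692.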
